A study of Rattus norvegicus with 12 samples.

Results

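The collagen genes of the rat lung were examined on one-colour microarrays from 4 groups of male rats. Collagens are the main structural proteins of the extracellular matrix. Each is built of 3 chains wound into a triple helix. Fibrillar collagens such as types I, III and V give airways, vessels and pleura their tensile strength, and type IV collagen is the network of the basement membrane on which alveolar epithelium and capillary endothelium sit. The chains are modified by hydroxylases in the endoplasmic reticulum, folded with the help of chaperones, trimmed outside the cell and then cross-linked by lysyl oxidases. A gene was counted as a member where the RefSeq accession of a probe led to a symbol made of Col, a type number, the letter a and a chain number. The GRCr8 gene table held 44 such genes, and 19 of them were matched to 26 probes of the array. Collagen genes whose probes carry other identifiers were not analysed here. For each gene the brightest probe was kept among those standing well above background throughout 1 or more of the groups (3 of 3 arrays). This left 18 genes, of which 7 were fibrillar, 3 belonged to the basement membrane and 8 were of other types. Col9a3 was not well above background in any full group and is not described further. Of the 18, 17 were well above background on all 12 arrays, and Col2a1 was so on 11.

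The rats were Sprague-Dawley males of 8 to 12 weeks, with 3 animals a group and 1 array an animal. The control group received air or saline. The CS+LPS group was a model of chronic obstructive pulmonary disease made by cigarette smoking (CS) until day 30, with lipopolysaccharide (LPS), a bacterial wall component, put into the trachea on days 5 and 19. The CS+LPS+NaHS group had the same exposures and sodium hydrosulfide, which releases hydrogen sulfide. The CS+LPS+PPG group had the same exposures and propargylglycine, which inhibits the hydrogen sulfide-producing enzyme cystathionine gamma-lyase. Either agent was injected into the peritoneum 2 h before exposure. No group received NaHS or PPG without smoke and LPS, so either agent can be described only on top of the exposure. RNA came from the left upper lobe, 24 h after the last smoke. The lung markers fixed for the tissue check, among them surfactant protein genes, numbered 6, and all 6 were detected. RNA from a whole lobe mixes cell types, and fewer cells of a type cannot be told apart from less RNA per cell.

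Levels are given as log2 of the processed signal after the 75th percentile of each array had been set equal, and a difference is a difference between group means on this scale. A level of one gene cannot be set against that of another, because each comes from its own probe. Tests were limma fits over all 21239 detected probes, and a gene was called where the Benjamini-Hochberg adjusted p was under 0.05. The arrays lay on 2 slides. All CS+LPS arrays and control replicate 3 were on slide 2, and the other 8 arrays were on slide 1. The CS+LPS group and the slide therefore cannot be told apart, except through control replicate 3, while CS+LPS+PPG and CS+LPS+NaHS were compared within slide 1. Control replicate 3 had the lowest 75th percentile, 1229 signal units against 2110 to 3261 on the other arrays, and its highest correlation with another array over detected probes was 0.957, the lowest such value of the 12. It also held the highest value of 6 of the 18 collagen genes, namely Col2a1, Col5a3, Col11a2, Col4a1, Col7a1 and Col9a2. Results of collagen genes that use the control group are given with and without it where it decides them. Those of the related gene lists are given only with it.

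**Figure D1:**
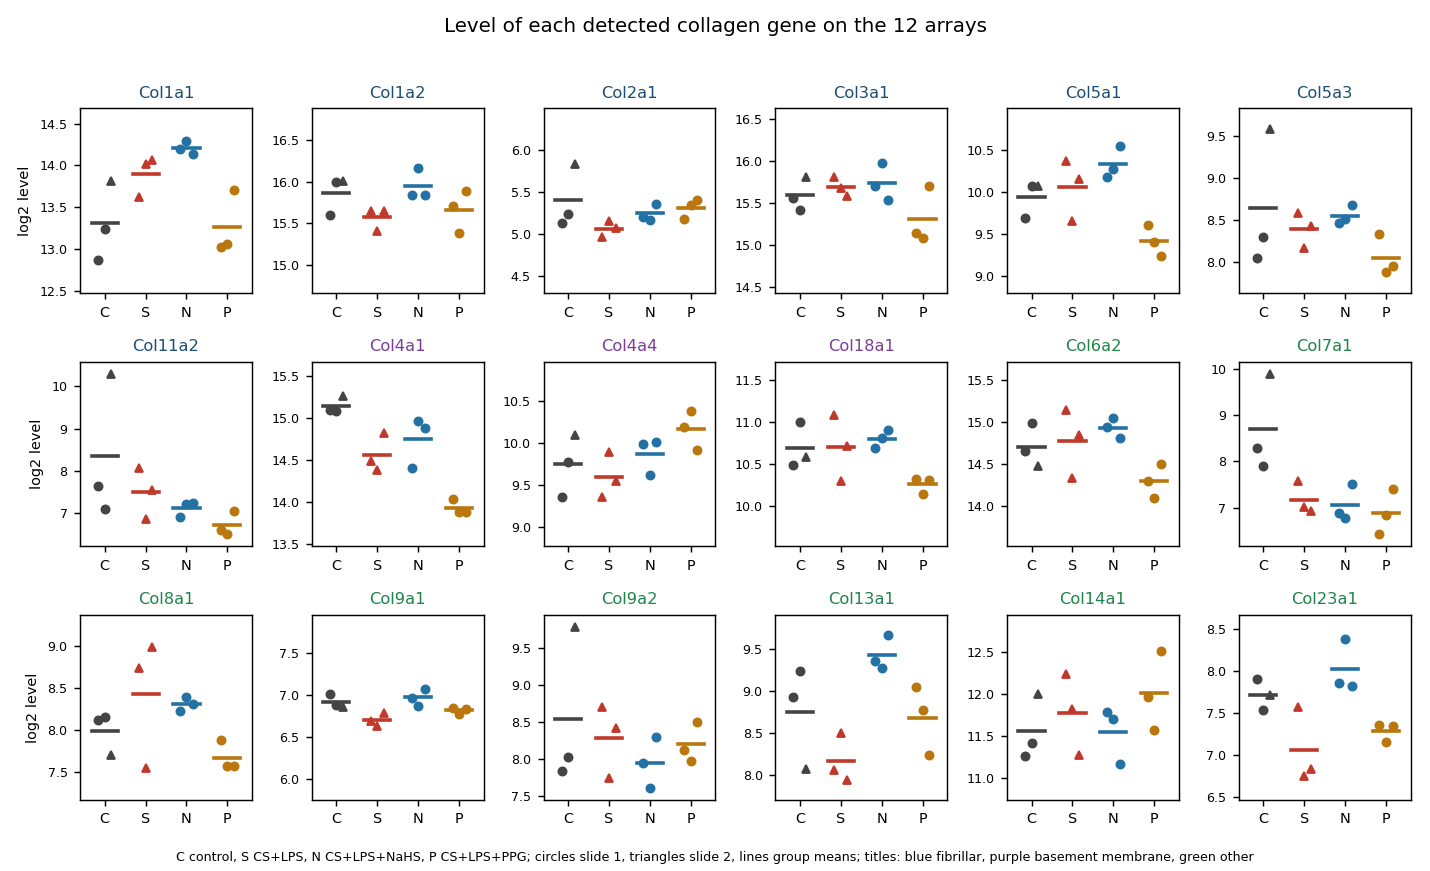
Each panel shows the normalised log2 level of 1 collagen gene on the 12 arrays, by group, with circles for slide 1, triangles for slide 2 and lines for the group means. The 3 CS+LPS+PPG points of Col4a1 lie below all other points of that gene, and the control triangle stands far above the other 2 control points for Col11a2, Col7a1, Col5a3 and Col9a2.

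The DNA in front of 3 genes on which results turned is shown here from RefSeq (GRCr8). Col4a1 and Col7a1 were called in the comparison of the CS+LPS+PPG group with control, and Col13a1 had the largest difference between the CS+LPS+NaHS and CS+LPS groups. Capitals mark the GC box GGGCGG and the TATA box TATAAA, searched on both strands. CCAAT was searched as well and was not found in these 3 sequences. Col4a1 is encoded head to head with Col4a2, the gene of its partner chain. Only the 76 bases between both starts are shown, at chr16:84885521-84885596 on the plus strand. For Col7a1 the 250 bases before its start are given, at chr8:118483114-118483363 on the plus strand. For Col13a1 the 250 bases lie at chr20:30466801-30467050 on the minus strand.
Col4a1: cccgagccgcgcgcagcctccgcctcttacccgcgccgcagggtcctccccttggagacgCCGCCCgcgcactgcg
Col7a1: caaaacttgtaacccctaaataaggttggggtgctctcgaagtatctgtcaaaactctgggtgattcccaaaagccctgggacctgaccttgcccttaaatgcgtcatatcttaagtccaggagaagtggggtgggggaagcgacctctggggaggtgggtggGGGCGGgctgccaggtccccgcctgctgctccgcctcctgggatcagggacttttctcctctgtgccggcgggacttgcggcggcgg
Col13a1: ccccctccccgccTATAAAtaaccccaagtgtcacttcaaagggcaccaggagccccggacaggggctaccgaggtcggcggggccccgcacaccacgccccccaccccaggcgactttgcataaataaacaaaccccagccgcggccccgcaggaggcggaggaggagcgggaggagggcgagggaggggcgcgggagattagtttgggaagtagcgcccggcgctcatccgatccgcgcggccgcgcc
The gap between Col4a2 and Col4a1 and the Col7a1 window held 1 GC box each, and the Col13a1 window held 1 TATA box. Windows of 250 bases were on hand for 13 of the 18 collagen genes. A GC box was in 8 of these 13 and in 30.5% of all 33469 windows of that length, a CCAAT box in 3 of 13 and in 34% of all, and a TATA box in 2 of 13 and in 12.9% of all. These matches describe the letters in the windows and nothing about which factors bind there.

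The clearest difference was that of 1 basement membrane gene, Col4a1, on its brighter probe in the CS+LPS+PPG group. Col4a1 encodes the alpha 1 chain of type IV collagen, the common chain of all basement membranes. In control lungs Col4a1 measured 15.10, 15.08 and 15.26. In the CS+LPS group it measured 14.48, 14.38 and 14.82, and in the CS+LPS+NaHS group 14.41, 14.96 and 14.88. The CS+LPS+PPG arrays measured 14.03, 13.88 and 13.87. The control arrays lay above the arrays of the other groups without overlap, and the CS+LPS+PPG arrays lay below them without overlap. Against control, Col4a1 fell by 1.22 ± 0.17 (SE, n = 3 a group) on the log2 scale in the CS+LPS+PPG group, so that the control level was 2.33 times as high (limma, adjusted p = 0.0175, unadjusted p = 2.16e-05). Without control replicate 3 the fall was 1.16 (limma, adjusted p = 0.0224). Leaving out CS+LPS+PPG arrays 1 at a time kept the size but not the call in each case, with adjusted p up to 0.065.

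A second probe of Col4a1, which was dimmer, gave 8.98, 9.12 and 7.94 in control, 8.69, 8.18 and 8.81 in CS+LPS, 8.61, 9.18 and 9.09 in CS+LPS+NaHS and 7.93, 7.96 and 7.99 in CS+LPS+PPG. The CS+LPS+PPG arrays were again low, but control replicate 3 was as low as they were, in contrast to the brighter probe. The second probe differed by -0.72 ± 0.29 from control (limma, adjusted p = 0.135), and it was not called. Both probes had lower levels in the CS+LPS+PPG group than in the CS+LPS+NaHS group, by 0.82 ± 0.17 on the brighter and 1.00 ± 0.29 on the second probe.

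Relative to control, Col4a1 also measured -0.58 ± 0.17 in the CS+LPS group (limma, adjusted p = 0.0889) and -0.40 ± 0.17 in the CS+LPS+NaHS group (adjusted p = 0.268), neither of which was called. The second probe gave -0.12 and 0.28 for these comparisons, so both probes differed in direction for NaHS. Col4a4, a chain of the network found in alveolar and glomerular basement membranes, read 9.36, 9.78 and 10.10 in control, 9.36, 9.90 and 9.55 in CS+LPS, 9.99, 9.63 and 10.01 in CS+LPS+NaHS and 10.20, 10.39 and 9.92 in CS+LPS+PPG. Its CS+LPS+PPG mean was the highest of the 4 groups, 0.42 ± 0.22 above control, with overlapping arrays. Col18a1, whose C-terminal fragment is endostatin, measured 10.49, 10.99 and 10.58 in control and 11.09, 10.29 and 10.72 in CS+LPS. It measured 10.69, 10.81 and 10.90 in CS+LPS+NaHS and 10.32, 10.15 and 10.31 in CS+LPS+PPG. Its CS+LPS+PPG arrays lay below the control arrays, and the difference of -0.43 ± 0.20 had an adjusted p of 0.176 by limma.

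Col7a1, the chain of the anchoring fibrils that tie the basement membrane of surface epithelia to the matrix beneath, was called in the same comparison. It read 8.29, 7.90 and 9.89 in control lungs. Levels were 7.57, 7.02 and 6.92 in CS+LPS, 6.89, 6.77 and 7.50 in CS+LPS+NaHS, and 6.42, 6.84 and 7.39 in CS+LPS+PPG. All 9 exposed lungs lay below all 3 control lungs, and the exposed groups overlapped one another. Col7a1 fell by 1.81 ± 0.46 against control in the CS+LPS+PPG group (limma, adjusted p = 0.0484). The differences of -1.52 ± 0.46 in the CS+LPS group (adjusted p = 0.0946) and -1.64 ± 0.46 in the CS+LPS+NaHS group (adjusted p = 0.147) were not called by limma. A large part of these sizes came from control replicate 3. Without it the differences were -1.21 for CS+LPS+PPG (adjusted p = 0.0635), -0.93 for CS+LPS (adjusted p = 0.158) and -1.04 for CS+LPS+NaHS (adjusted p = 0.205), and none was called by limma. The CS+LPS+PPG call was also lost when any other single array was left out, of any group, except control replicate 2. Within slide 1 the CS+LPS+NaHS and CS+LPS+PPG arrays still lay below both control arrays.

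Among all 18 collagen genes, the count called between the CS+LPS+PPG group and control was 2, against 5.2% of all detected probes. By the rule of the study's methods, a fold change of at least 2 with an unadjusted p under 0.05, there were 3 (Col4a1, Col7a1 and Col11a2), against 4.3% of all probes. At an unadjusted p under 0.05 alone, 4 collagen genes were lower (those 3 and Col5a1), where 12.1% of all probes were lower, and none was higher, where 17.5% of all probes were higher. The median difference over the 18 genes was -0.33, beside 0.00 over all detected probes. The measured difference was below 0 for 16 of the 18, and the exceptions were Col4a4 and Col14a1. Within slide 1, that is against control replicates 1 and 2, it was below 0 for 13 of 18, with a median of -0.29 beside 0.05 for all probes. In the limma fit without control replicate 3, 3 collagen genes were lower at an unadjusted p under 0.05. Col4a4 was then higher at that threshold, by 0.60, so the absence of higher genes depended on that array.

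**Figure D2:**
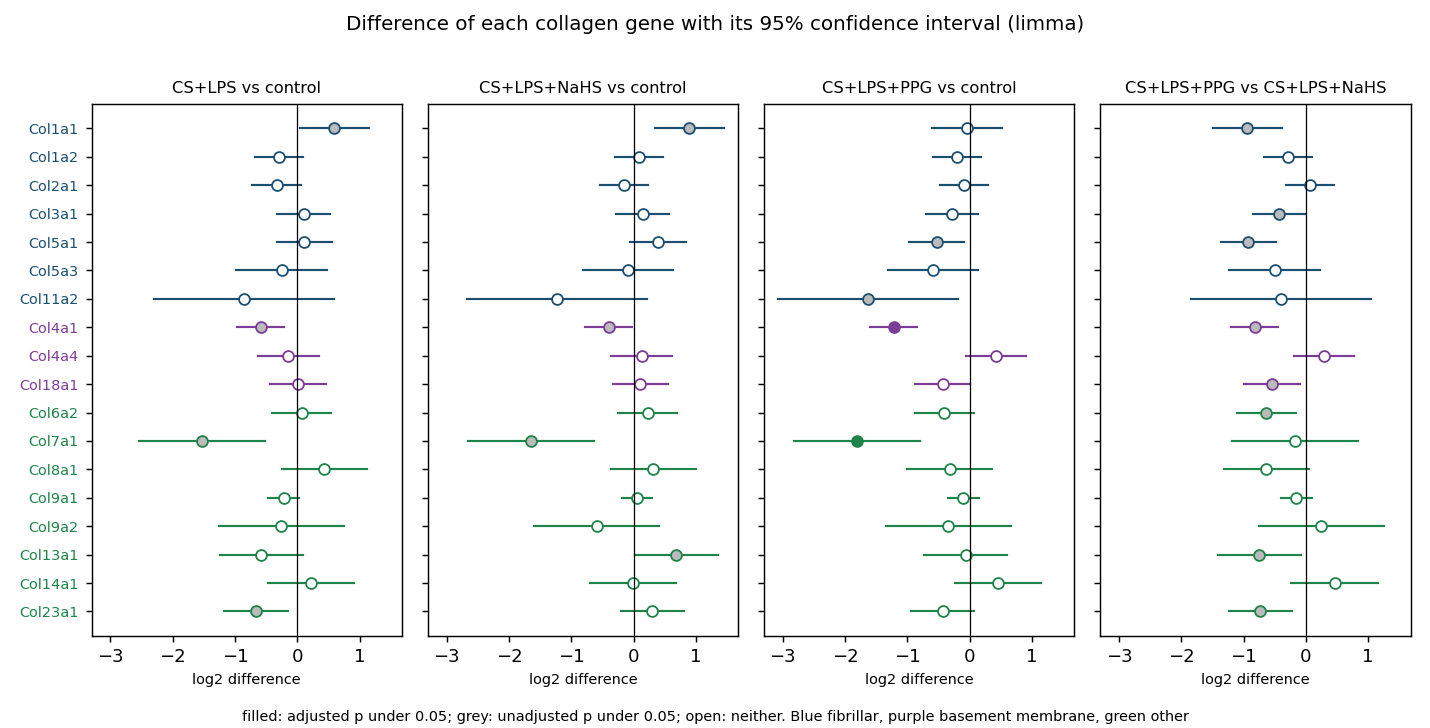
Points are log2 differences of the 18 collagen genes with 95% confidence intervals from limma, in 4 comparisons with the first group minus the second. Filled points have an adjusted p under 0.05, grey points an unadjusted p under 0.05. The only filled points are Col4a1 and Col7a1 in the CS+LPS+PPG against control panel, and most points of the last panel lie left of 0.

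Propargylglycine and NaHS act on hydrogen sulfide in opposite directions, and both groups lay on slide 1. No collagen gene was called between them, and limma called 0% of all detected probes (0 of 21239). At an unadjusted p under 0.05, 8 of the 18 collagen genes were lower in the CS+LPS+PPG group, where 4.01% of all probes were lower, and none was higher, where 4.85% of all probes were higher. These genes were Col1a1, Col3a1 and Col5a1 among the fibrillar chains, Col4a1 and Col18a1 in the basement membrane, and Col6a2, Col13a1 and Col23a1 among the others. Their adjusted p values ran from 0.555 to 0.556 in limma. None reached a fold change of 2 on the probe kept for the gene, a limit that, together with an unadjusted p under 0.05, 0.499% of all probes passed. The second probe of Col4a1 passed it, at a fold change of 2.003 (limma, unadjusted p = 0.0061, adjusted p = 0.555). The median difference over the 18 was -0.47 beside -0.01 for all detected probes. By class the medians were -0.43 for fibrillar, -0.54 for basement membrane and -0.40 for other collagens. The count of 8 lower genes ranged from 4 to 9 over 24 alternative settings. The lowest value came without CS+LPS+PPG replicate 2, the array that held the lowest level of 6 collagen genes.

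Col1a1, the alpha 1 chain of type I collagen, the most abundant fibrillar collagen of connective tissue, differed most between these groups among the fibrillar genes. It measured 14.19, 14.29 and 14.14 in the CS+LPS+NaHS group and 13.02, 13.06 and 13.71 in the CS+LPS+PPG group. Control lungs gave 12.87, 13.24 and 13.81, and CS+LPS lungs gave 13.62, 14.02 and 14.07. The CS+LPS+NaHS arrays lay above all other arrays. The difference of the CS+LPS+PPG from the CS+LPS+NaHS group was -0.94 ± 0.25 (limma, unadjusted p = 0.00354, adjusted p = 0.555), and it was -0.82 ± 0.23 on the second probe. Against control, the CS+LPS+NaHS group was 0.90 ± 0.25 higher (limma, unadjusted p = 0.00477, adjusted p = 0.149), and 1.11 ± 0.23 on the second probe (adjusted p = 0.109). The CS+LPS group was 0.59 ± 0.25 higher than control (adjusted p = 0.177), and the CS+LPS+PPG group differed by -0.04 ± 0.25. The CS+LPS difference also runs between the slides, and its size depended on control replicate 3. It was 0.84 without that array, and 0.09 within slide 2, where that array is the only control.

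**Figure D3:**
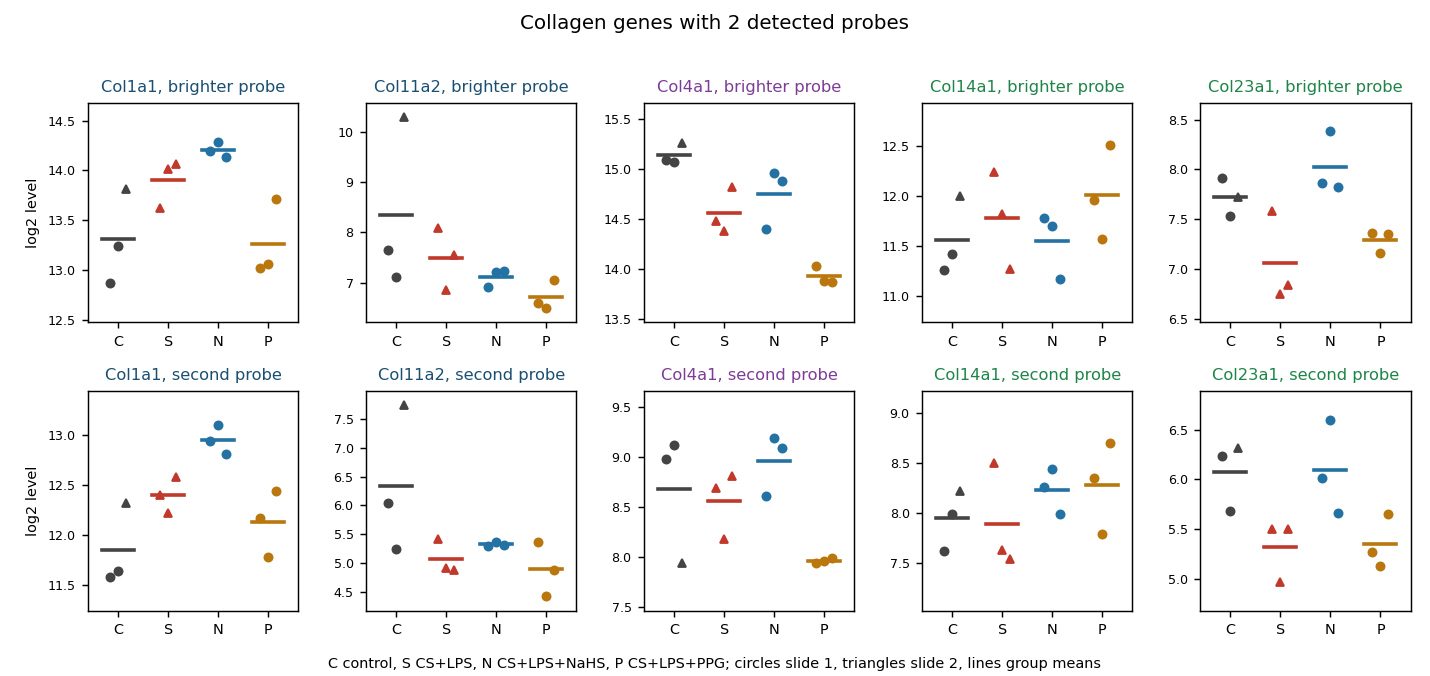
Normalised log2 levels on the 12 arrays for the 5 collagen genes with 2 detected probes, with the brighter probe above and the second probe below, circles for slide 1, triangles for slide 2 and lines for group means. On both probes the CS+LPS+NaHS points are the highest for Col1a1 and control replicate 3 is the highest for Col11a2, while control replicate 3 is the highest Col4a1 array on one probe and among the lowest on the other.

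The other type I chain did not follow to the same extent. Col1a2 read 15.60, 15.99 and 16.01 in control and 15.65, 15.41 and 15.65 in CS+LPS. It read 15.84, 16.16 and 15.84 in CS+LPS+NaHS and 15.71, 15.38 and 15.88 in CS+LPS+PPG. The difference of CS+LPS+PPG from CS+LPS+NaHS was -0.29, with a 95% interval from -0.67 to 0.10 and overlapping arrays. Col3a1, the chain of type III collagen that accompanies type I in distensible tissue, read 15.56, 15.42 and 15.81 in control, 15.82, 15.69 and 15.58 in CS+LPS, 15.71, 15.98 and 15.54 in CS+LPS+NaHS and 15.14, 15.08 and 15.71 in CS+LPS+PPG. CS+LPS+PPG replicate 3 reached into the range of the other groups, and the other 2 arrays of that group were the lowest of the 12. The difference of Col3a1 from the CS+LPS+NaHS group was -0.43 ± 0.19 (limma, unadjusted p = 0.0457). Col5a1, a chain of the type V collagen that sits in the core of type I fibrils, is named after its values were seen. Levels of Col5a1 were 9.70, 10.08 and 10.07 in control, 10.37, 9.66 and 10.16 in CS+LPS, 10.18, 10.28 and 10.56 in CS+LPS+NaHS and 9.61, 9.41 and 9.24 in CS+LPS+PPG. The CS+LPS+PPG arrays lay below those of all other groups. The difference of Col5a1 was -0.92 ± 0.20 from CS+LPS+NaHS (limma, unadjusted p = 0.00084), -0.64 ± 0.20 from CS+LPS and -0.53 ± 0.20 from control.

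Col6a2, a chain of the beaded filaments of type VI collagen, read 14.65, 14.99 and 14.47 in control, 15.14, 14.33 and 14.84 in CS+LPS, 14.94, 15.04 and 14.81 in CS+LPS+NaHS and 14.29, 14.09 and 14.50 in CS+LPS+PPG. Its CS+LPS+PPG arrays lay below all CS+LPS+NaHS arrays and overlapped those of the control and CS+LPS groups. The difference of Col6a2 from CS+LPS+NaHS was -0.64 ± 0.21 (limma, unadjusted p = 0.0127). Col14a1, which lies on the surface of collagen fibrils, had a difference of the opposite sign. It read 11.26, 11.42 and 12.00 in control, 12.24, 11.82 and 11.27 in CS+LPS, 11.78, 11.71 and 11.17 in CS+LPS+NaHS and 11.96, 11.57 and 12.51 in CS+LPS+PPG. The groups overlapped throughout. Its difference of CS+LPS+PPG from CS+LPS+NaHS was 0.46, with a 95% interval from -0.23 to 1.16, and 0.05 on the second probe.

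Summed markers of other tissues and cell types stand beside these values, and only some of them separated the groups. The summed signal of 5 detected heart muscle markers of 6 lay between 735 and 78790 for control lungs, between 3605 and 39810 for CS+LPS, between 725 and 41820 for CS+LPS+NaHS and between 30960 and 55460 for CS+LPS+PPG. The sum of 4 detected fat markers of 6 ranged from 3782 to 13540, 4616 to 7199, 5612 to 7767 and 9639 to 13600 in the same order. The sum of 7 detected fibroblast markers of 8 ranged from 26580 to 38170 in control and from 25640 to 34970 in CS+LPS. It ranged from 31900 to 33750 in CS+LPS+NaHS and from 32790 to 47540 in CS+LPS+PPG, so the groups overlapped. The 6 smooth muscle markers summed to 56120 to 92980 in control and to 48490 to 99900 over the exposed lungs. The 4 endothelial markers summed to 63430 to 66390 in control and to 40190 to 49970 over the 9 exposed lungs, and the 3 detected macrophage markers of 4 to 4161 to 8237 in control and 12640 to 19510 in the exposed lungs. The 2 detected mesothelium markers of 4 summed to 9104 to 16180 in control and to 6246 to 8456 in the exposed lungs. The 3 detected pancreas markers of 6 summed to 2640 to 4047 in CS+LPS+NaHS, to 1695 to 3169 in CS+LPS+PPG and to 1448 to 1964 over the control and CS+LPS groups. Control replicate 3 held the highest control sum of the heart muscle, fat, mesothelium, smooth muscle, cartilage, skeletal muscle and lung markers. Its heart muscle sum was 78790, against 1139 and 735 in control replicates 1 and 2. Its fat sum was 13540, against 3782 and 4051, and its mesothelium sum was 16180, against 9126 and 9104. Its smooth muscle sum was 92980, against 72270 and 56120. Its fibroblast, endothelial and macrophage sums were the lowest of the control group. The part of these markers in the collagen differences was not tested.

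Smoke and LPS alone changed no collagen gene past the adjusted threshold. Between the CS+LPS group and control limma called 0 of 18, against 2.1% of all probes. Col7a1 alone met the methods' fold rule, which 4.6% of all probes met. At an unadjusted p under 0.05, 3 collagen genes were lower (Col4a1, Col7a1 and Col23a1), where 14.2% of all probes were lower, and 1 was higher (Col1a1), where 11.2% were higher. With the slide as a block, a fit that links the slides through control replicate 3 alone, limma called 6 collagen genes, all lower, and 41.1% of all probes. The median difference was -0.23 over the 18 genes beside -0.06 over all probes. Without control replicate 3 the median of the 7 fibrillar genes turned from -0.25 to 0.18.

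Of the 18 genes, leaving out that control moved Col11a2, Col9a2, Col7a1 and Col5a3 most in the differences from control. Col11a2, a chain of the thin fibrils of cartilage, read 7.66, 7.11 and 10.29 in control, 8.08, 6.86 and 7.55 in CS+LPS, 6.92, 7.21 and 7.23 in CS+LPS+NaHS and 6.60, 6.50 and 7.06 in CS+LPS+PPG. Control replicate 3 stood far above the other 11 arrays, on both probes of the gene. The CS+LPS+PPG difference from control of -1.63 ± 0.66 (limma, unadjusted p = 0.0309, adjusted p = 0.131) became -0.66 without it. For CS+LPS against control the difference of Col11a2 was -0.86 with all controls and 0.11 without control replicate 3. Col9a2, another cartilage chain, read 7.83, 8.02 and 9.78 in control, and Col5a3 read 8.05, 8.30 and 9.59, so both had the same single high control. Detected cartilage markers numbered 2 of 8, and their sum lay between 183 and 317 for control lungs, 217 and 387 for CS+LPS, 222 and 331 for CS+LPS+NaHS, and 176 and 405 for CS+LPS+PPG. The highest control sum, 317, was that of control replicate 3, against 183 and 193 in control replicates 1 and 2.

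**Figure D4:**
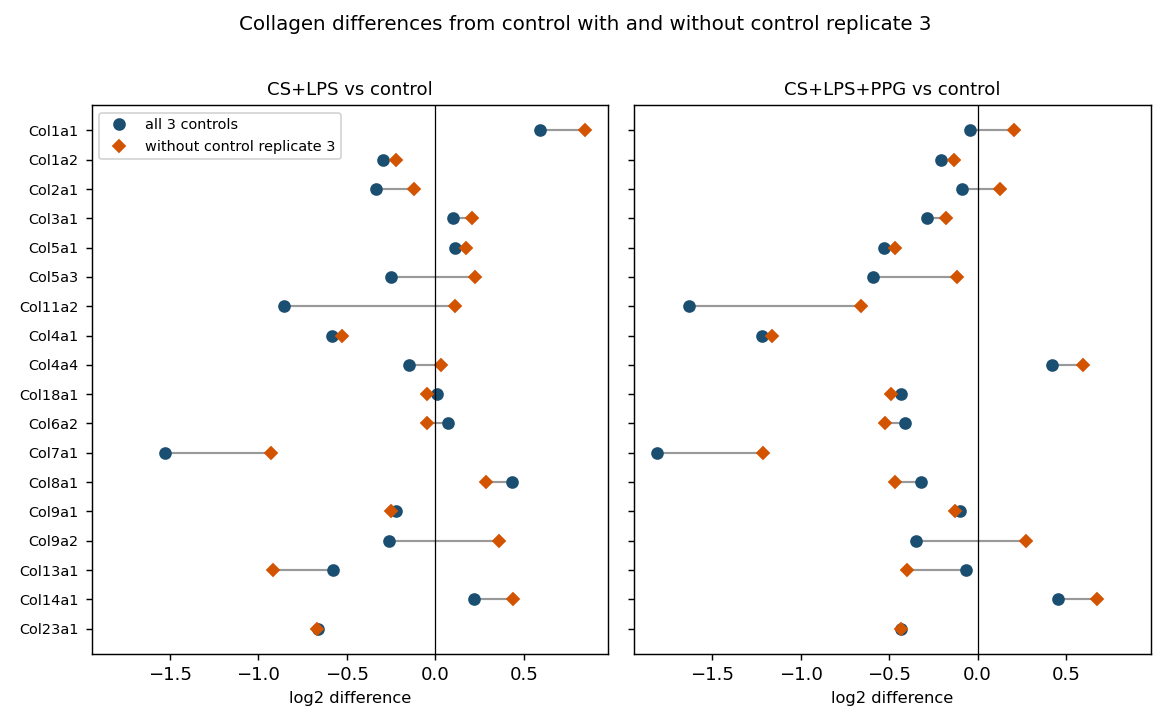
For each of the 18 collagen genes, circles give the log2 difference from control with all 3 control arrays and diamonds the difference without control replicate 3, for the CS+LPS and the CS+LPS+PPG groups. The largest shifts are those of Col11a2, Col7a1, Col5a3 and Col9a2, whereas Col4a1 hardly moves.

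NaHS on top of the exposure changed no collagen gene past the adjusted threshold either. Against control, limma called 0 of 18 and 0.122% of all probes. Col7a1 met the fold rule, which 2.58% of all probes met. Genes with an unadjusted p under 0.05 were Col1a1 and Col13a1 on the higher side (10.5% of all probes) and Col4a1 and Col7a1 on the lower side (7.1%). Without control replicate 3 only Col1a1, higher, and Col7a1, lower, passed that threshold, while Col13a1 went from 0.69 to 0.35 and Col4a1 from -0.40 to -0.34. The median difference over the 18 was 0.10, and 0.02 over all probes.

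Against the CS+LPS group, the NaHS comparison also called 0 of 18 by limma, with 0.739% of all probes called. Here Col13a1, a transmembrane collagen of cell contacts, met the fold rule, as 1.94% of all probes did. It read 8.05, 8.50 and 7.94 in CS+LPS and 9.36, 9.27 and 9.67 in CS+LPS+NaHS, without overlap. Control lungs gave 8.92, 9.24 and 8.07, and CS+LPS+PPG lungs 9.04, 8.77 and 8.23. The difference of 1.27 ± 0.30 between CS+LPS+NaHS and CS+LPS (limma, unadjusted p = 0.00162, adjusted p = 0.102) was also one between slides, and control replicate 3, on the slide of the CS+LPS arrays, read as low as they did. With the slide as a block it was 0.26 (adjusted p = 0.681). At an unadjusted p under 0.05, Col9a1, Col13a1 and Col23a1 were higher with NaHS, where 8.65% of all probes were higher, and none was lower, where 1.45% were.

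Between the CS+LPS+PPG and CS+LPS groups limma called 0 of 18 collagen genes and 0.584% of all probes, and no collagen gene met the fold rule, which 2.14% of all probes met. At an unadjusted p under 0.05, 5 were lower (Col1a1, Col5a1, Col4a1, Col6a2 and Col8a1), where 2.39% of all probes were lower. The second probes of Col1a1 and Col4a1 did not pass that threshold, with -0.27 and -0.60 (limma, unadjusted p = 0.259 and 0.0671). Col4a4 was higher, where 8.46% of all probes were higher. The median was -0.31 over the 18 and 0.05 over all probes. This comparison also runs between the slides, and with the slide as a block 1 gene was lower and 6 were higher at that threshold. Of the higher genes, Col2a1, Col5a3, Col11a2, Col4a4 and Col9a2 were then called by limma, as were 22.3% of all probes.

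Of the remaining genes, Col2a1, Col5a3, Col8a1, Col9a1, Col9a2 and Col23a1 were called in no comparison. The spread between rats within a group differed widely among the members. The pooled SD was 0.08 for Col9a1, 0.20 for Col4a1 and 0.21 for Col1a2, and reached 0.92 for Col11a2, 0.64 for Col7a1 and 0.63 for Col9a2. Col2a1, the cartilage type II chain, lay near background, with levels from 4.97 to 5.83 over the 12 arrays. Col23a1, a transmembrane chain named after its values were seen, read 7.58, 6.75 and 6.84 in CS+LPS, 7.87, 8.38 and 7.82 in CS+LPS+NaHS and 7.36, 7.16 and 7.35 in CS+LPS+PPG. Its CS+LPS+NaHS arrays lay above those of both other exposed groups on both of its probes. Control lungs gave 7.92, 7.53 and 7.72 for Col23a1 and overlapped the CS+LPS+NaHS arrays. The CS+LPS+NaHS difference from control was 0.30 ± 0.23, and 0.01 on the second probe.

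The genes that make and mature collagen were read from a list of 36, of which 28 were detected. Between the CS+LPS+PPG group and control 1 of 28 was called by limma (3.57%), a share no larger than the 5.2% of all probes. P3h1, a prolyl 3-hydroxylase that modifies fibrillar chains, fell by 0.69 ± 0.16 (adjusted p = 0.0404). Its levels lay between 12.10 and 12.59 in control and between 11.46 and 11.71 in CS+LPS+PPG. At an unadjusted p under 0.05, 7 of 28 were lower in that comparison (25%, against 12.1% of all probes) and 1 was higher (3.57%, against 17.5%). The lower ones were the prolyl hydroxylase genes P4ha1, P4ha2, P3h1 and P3h3, the lysyl hydroxylase genes Plod1 and Plod2, and Bmp1, which cuts the C-propeptide. Against CS+LPS+NaHS, 23 of the 28 measured lower with PPG, 6 of them at an unadjusted p under 0.05, and the median difference was -0.25. Over all probes 52.1% measured lower, 4.01% were lower at that threshold and the median was -0.01. No gene of this list was called in the other 5 comparisons by limma.

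Of 12 collagen receptors 8 were detected. Itga1, the alpha 1 integrin chain that binds type IV and type I collagen, fell by 0.61 ± 0.15 in the CS+LPS+PPG group against control (limma, adjusted p = 0.0484), and it was the only receptor called, 1 of 8 against 5.2% of all probes. Its levels ran from 15.10 to 15.22 in control and from 14.22 to 14.82 in CS+LPS+PPG, without overlap. Of 15 fibril partners 12 were detected. Dcn, the gene of decorin, a small proteoglycan that binds collagen fibrils, rose by 1.50 ± 0.35 in the same comparison (limma, adjusted p = 0.0416). Its levels lay between 11.54 and 12.72 in control and between 13.23 and 13.99 in CS+LPS+PPG. It was the only fibril partner called, 1 of 12 against 5.2% of all probes, and it is also one of the fibroblast markers. At an unadjusted p under 0.05, 3 of 12 fibril partners were higher (Dcn, Lum and Postn, 25%, against 17.5% of all probes). In the same comparison 1 was lower (Bgn, 8.33%, against 12.1%). Of the 8 receptors 3 were lower (Adgrg1, Itga1 and Mrc2, 37.5%, against 12.1%), and none was higher. No receptor or fibril partner was called in the other 5 comparisons by limma.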

How the data were processed

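Total RNA of 12 lungs was hybridised to a one-colour Agilent rat array. Per the labels and the file headers, the authors deposited Agilent Feature Extraction 10.7 output, whose processed signal intensities were background-subtracted by that software and not normalized between arrays. Signals of 3 arrays were rounded to 3 significant digits in the deposited files. Probes were named by RefSeq accession through the GRCr8 gene table, which gave 17514 of 30367 probes a symbol. Outlier spots were left out, spots of a probe were averaged as log2 values, and each array's 75th percentile was removed. A probe was detected where at least 50% of its spots were well above background on all 3 arrays of a group, which left 21239. The 4 groups were fitted together in limma 3.58.1 (R 4.3.3) without covariates, for 6 comparisons. Genes described on every array were those called, those past the fold rule of the methods (2-fold with an unadjusted p under 0.05), and the 3 most intense of each class. Members, lists and tests were chosen with earlier results of these data known. Alternatives are in the closing section. The precision rests on 3 arrays a group. The authors' lists of fold changes and p-values were not used.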

Additional observations from a re-analysis of the deposited data

How the results depend on the processing

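The count of collagen genes called between CS+LPS+PPG and control was 2 in the fit as reported. It was 1 (Col4a1) with quantile normalization, with a filter of 1 array, with no filter, with the slide as a block and with the replicate number as a block, and 0 with only the 2 groups compared and with the methods' t-test. Leaving out each array gave 0 to 2, and Col4a1 was not called when any CS+LPS+PPG array was left out. Col7a1 stayed called only when the array left out was control replicate 2. For CS+LPS against control the count was 0 as reported, 1 with normexp correction, 6 with the slide as a block, 1 by the methods' fold rule and 0 to 1 when each array was left out. For CS+LPS+NaHS against control it was 1 by the fold rule and 0 otherwise. For CS+LPS+NaHS against CS+LPS it was 5 with the slide as a block, 1 with only these groups, 1 by the fold rule and 0 to 1 when each array was left out. For CS+LPS+PPG against CS+LPS it was 5 with the slide as a block and 0 to 1 when each array was left out. For CS+LPS+PPG against CS+LPS+NaHS it was 0 throughout.

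With the slide as a block, Col11a2 reversed to 2.53 for CS+LPS+NaHS and 2.14 for CS+LPS+PPG against CS+LPS, and Col7a1 to 1.67 for CS+LPS+NaHS against CS+LPS. In the same 2 comparisons Col9a2 turned to 1.52 and 1.77, both called. For CS+LPS+PPG against CS+LPS, Col5a3 turned to 1.08 (called) and Col7a1 to 1.51 (not called). That fit links the slides through control replicate 3 alone. The replicate number did not pair the rats: same-numbered arrays correlated by over 0.1 in 2 of 18 pairs, and the block left 1 collagen gene called between CS+LPS+PPG and control. Over the described genes and the class medians, 1887 other values stayed on their side of the threshold or, for medians, within the spread between arrays, 23 were no longer called, 7 became called and 6 moved by more than the spread between arrays. The number of arrays, 3 a group, limits the precision of all values.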
